A study of Homo sapiens with 10 samples.

Results

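The proteasome genes were taken as the rows of the expression table whose symbol begins with PSMA, PSMB, PSMC, PSMD, PSME, PSMF or PSMG and a number, has no hyphen and is marked protein-coding. This gave 49 of 27142 genes. Their RNA was measured by RNA-seq in the human 697 cell line, which comes from a pre-B leukaemia, in 2 control libraries and 2 libraries treated with TPA (12-O-tetradecanoylphorbol-13-acetate), which activates protein kinase C. All 4 came from the parental line grown in RPMI1640 with serum, and the treated cells received TPA at 0.5 µg/ml for a time that the labels leave as 0 to 24 h. Whether replicates were grown as separate cultures is not in the labels, so the p-values here stand for the spread of these libraries alone, which may be technical. The 6 ChIP-seq and input samples of the series were not analysed here.

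The proteasome is the protease that breaks down proteins tagged with ubiquitin. Its core is a barrel of stacked rings, in which alpha subunits form the gate and beta subunits hold the active sites. A cap binds ubiquitin chains, removes them and threads the substrate into the core with a ring of ATPases. Dedicated chaperones assemble the parts, other activators can take the place of the cap, and in lymphoid cells immune forms of the catalytic beta subunits can replace the constitutive ones. In many cells the factor NRF1 (gene NFE2L1) raises most subunit genes together through antioxidant response elements in their promoters.

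Every level below is in RPKM, reads scaled to gene length and library size, so levels of different genes can be set side by side. All genes together summed to 370558 and 386700 RPKM without TPA and to 349438 and 388846 RPKM with it. Read totals are unknown, but relative to control replicate 1 the smallest steps in the values put the other libraries at 91.3% to 97.8% of its depth. Of 13 pre-B markers, 12 had at least 1 RPKM in all 4 libraries, and the summed level of the 13 went from 2365 to 2372 RPKM in control to 1390 to 1593 RPKM with TPA. All 8 T-cell and all 7 erythroid markers stayed under 1 RPKM in every library. The 9 myeloid markers summed to 0.667 and 0.972 RPKM in control and to 3.15 to 3.88 RPKM with TPA, most of it CSF1R, with S100A8 and S100A9 at 0 throughout. In bulk RNA, fewer cells of a type and less RNA per cell cannot be told apart.

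The promoters of 43 of the 49 genes were found by symbol in a RefSeq table (build GRCh38.p14), which gives 250 bases before and 50 after a start site. A set of 5 is shown, up to the start site, because they belong to the assembly factor and the subunit with the largest falls (PSMG1, PSMA6), to a cap subunit that fell (PSMD3) and to a pair of structural subunits of the beta ring of which PSMB3 fell and PSMB4 did not pass. Capitals mark the antioxidant response core TGACNNNGC and the CCAAT box, on either strand.
PSMG1, minus strand of chr21:39183452-39183701: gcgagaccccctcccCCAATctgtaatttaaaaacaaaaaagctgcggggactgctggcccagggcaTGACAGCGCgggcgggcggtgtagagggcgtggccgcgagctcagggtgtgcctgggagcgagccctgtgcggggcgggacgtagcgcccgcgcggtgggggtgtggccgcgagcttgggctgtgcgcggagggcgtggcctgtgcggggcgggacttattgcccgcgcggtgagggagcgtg
PSMA6, plus strand of chr14:35292067-35292316: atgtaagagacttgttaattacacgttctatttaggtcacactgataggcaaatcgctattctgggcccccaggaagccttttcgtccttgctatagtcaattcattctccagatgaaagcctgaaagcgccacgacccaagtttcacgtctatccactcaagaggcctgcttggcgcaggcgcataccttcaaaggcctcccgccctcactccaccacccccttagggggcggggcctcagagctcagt
PSMD3, plus strand of chr17:39980557-39980806: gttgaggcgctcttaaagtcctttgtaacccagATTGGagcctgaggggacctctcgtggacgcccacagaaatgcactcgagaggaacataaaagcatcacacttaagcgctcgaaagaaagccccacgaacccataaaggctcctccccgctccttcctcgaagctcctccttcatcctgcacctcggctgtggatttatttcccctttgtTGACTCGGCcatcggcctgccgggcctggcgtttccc
PSMB3, plus strand of chr17:38752491-38752740: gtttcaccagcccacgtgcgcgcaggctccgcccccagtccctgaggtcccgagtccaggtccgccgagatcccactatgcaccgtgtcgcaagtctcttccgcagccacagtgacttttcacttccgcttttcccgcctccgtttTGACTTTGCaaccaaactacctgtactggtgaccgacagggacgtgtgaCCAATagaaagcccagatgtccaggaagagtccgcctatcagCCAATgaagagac
PSMB4, plus strand of chr1:151399323-151399572: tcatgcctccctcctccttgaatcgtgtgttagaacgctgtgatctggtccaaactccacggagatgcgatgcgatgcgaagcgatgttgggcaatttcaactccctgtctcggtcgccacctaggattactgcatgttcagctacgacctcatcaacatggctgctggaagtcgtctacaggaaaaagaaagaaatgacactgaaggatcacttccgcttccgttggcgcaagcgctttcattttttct

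Neither motif occurred in the PSMA6 or PSMB4 stretch, whereas PSMG1, PSMD3 and PSMB3 each held 1 copy of TGACNNNGC. Over the whole 300 bases, 13 of 43 proteasome promoters held it (30.2%), against 13.3% of 35116 promoters of the table and 15.5% of those of tested genes. CCAAT was in 20 of 43 (46.5%), against 34.6% and 37.3%, and the ETS-type motif CCGGAAG, which was added after the other results were seen, in 14 of 43 (32.6%), against 10.3% and 20.7%. Split by the response to TPA, TGACNNNGC was in 7 of 20 promoters of genes that fell and in 4 of 17 of genes that did not pass, and CCGGAAG in 5 of 20 and 7 of 17. These are matches of letters, not measured binding sites.

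Most proteasome genes had lower RNA levels with TPA, by modest amounts. Of the 49 genes, 43 passed the filter (1 RPKM or more in 2 or more libraries), and each of these was detected in all 4. With limma on log2(RPKM + 1), the scale of every log2 fold change here (TPA minus control), 21 fell at a Benjamini-Hochberg adjusted p under 0.05, 0 rose and 22 did not pass. Across all 12159 genes tested, 58.2% changed, 29.8% fell and 28.4% rose, beside 48.8% of the proteasome genes that fell. Among the 6261 genes tested within the same range of mean RPKM, 34.0% fell and 24.3% rose. Without regard to adjustment, 23 fell and 0 rose at p under 0.05, where 3888 and 3711 of all 12159 genes tested did. The log2 fold change was below 0 for 38 of the 43 genes, with a median of -0.36 (quartiles -0.66 and -0.22), against -0.02 over all genes tested and -0.12 over those within that range of RPKM. The distance between quartiles was 0.44, against 0.99 over all genes. On the log2(RPKM + 1) scale 4 proteasome genes fell 2-fold or more, PSMG1, PSMA6, PSMC3IP and PSMG4, where the share over all genes was 11.5%. PSMC3 lay at the border, with a 2.002-fold fall in mean RPKM and a log2 fold change of -0.98.

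With 1 library left out, fewer proteasome genes fell and fewer of all genes changed. The count was 11 without control replicate 2, where 45.0% of all genes changed, and 16 when control replicate 1 was left out, where 48.0% did. It was 15 when TPA replicate 1 was left out (54.0% of all genes) and 20 for TPA replicate 2 (54.8%). In the fits that lack a control, limma pooled the spread over all genes completely, so their p-values are not on the same footing as the others. The genes that fell in all of these fits were PSMA3, PSMA6, PSMA7, PSMB10, PSMC3, PSMC3IP, PSMD1, PSMD14, PSME1, PSMG1 and PSMG4. The share of all genes that fell in all of them is not given here. The shares above are of changes in either direction, so they are no background for a count of falls. The 2 control values lay above both TPA values for 33 of the 43 genes (41.0% of all genes tested) and below both for 2, PSMD4 and PSMF1 (38.8% of all). For the other 8 the groups overlapped.

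**Figure D1:**
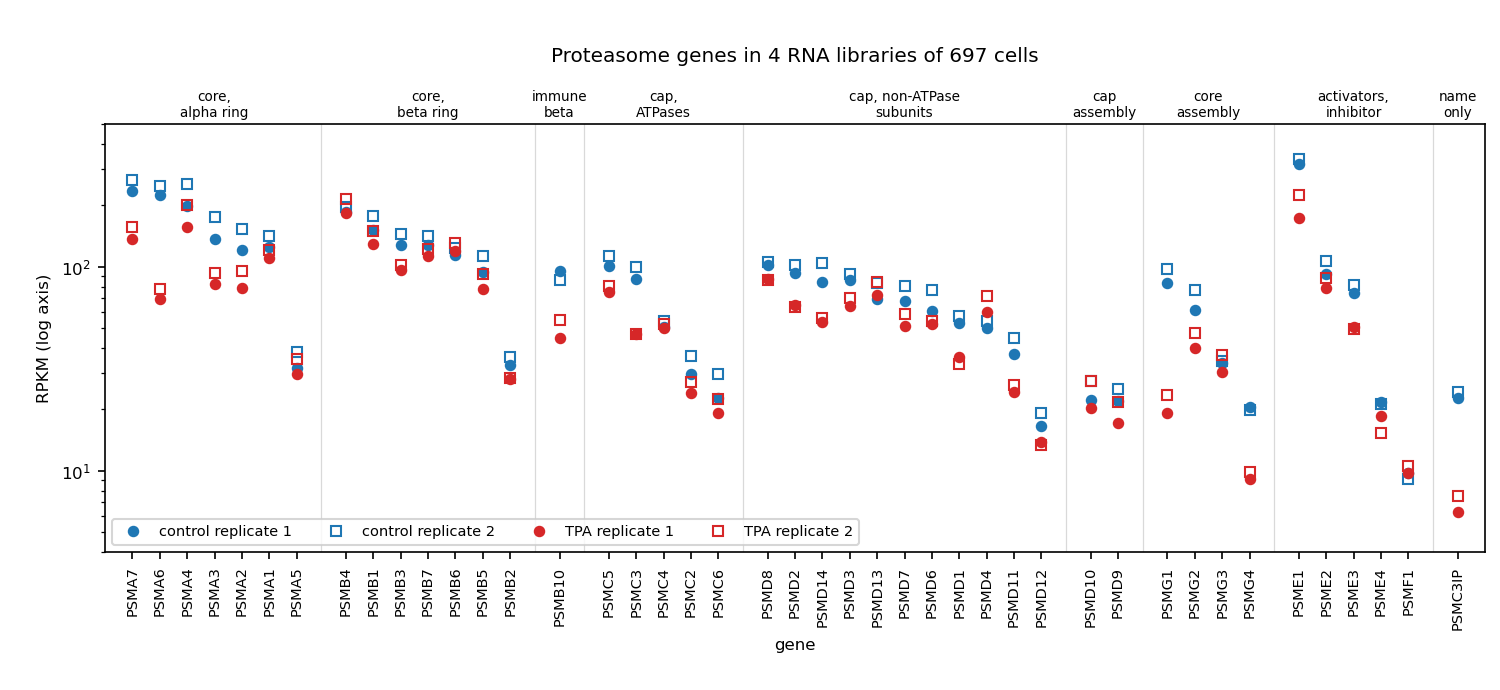
RPKM on a log axis of the 43 proteasome genes tested, in control (blue) and TPA (red) libraries, with replicate 1 as filled circles and replicate 2 as open squares, ordered by role and control level. PSMA6 and PSMG1 stand far lower with TPA, whereas the values of most constitutive beta subunits lie close together.

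Summed over all 49 genes, the proteasome genes had 3801 and 4311 RPKM in the control libraries and 2727 and 3089 RPKM with TPA. They made up 1.03% and 1.11% of the summed RPKM in control and 0.780% and 0.794% with TPA, and the groups did not overlap. By role, 6 of 15 core genes tested, 9 of 16 cap genes and 3 of 6 assembly genes fell, with medians of -0.28, -0.38 and -0.46. The core's part of the summed RPKM was 52.8% and 53.2% in control and 53.4% and 54.3% with TPA, slightly higher in both treated libraries. The cap held 26.7% and 26.8% in control and 29.2% and 27.5% with TPA, also the higher share in both treated libraries. The assembly chaperones held 6.40% and 6.54% in control and 5.01% and 5.42% with TPA, the lower share in both treated libraries. Within the core, the sum of the alpha ring went from 1074 and 1276 to 662 and 780.2 RPKM, lower in both treated libraries. That of the constitutive beta ring went from 836 and 931 to 749 and 842 RPKM, so its groups overlapped. As shares, the alpha ring held 28.2% and 29.6% of the sum in control and 24.3% and 25.3% with TPA, and the constitutive beta ring 21.99% and 21.6%, then 27.5% and 27.2%. The difference between role groups was not tested.

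The alpha ring, whose subunits gate the barrel and dock the cap, had 8 genes, of which 7 were tested; 4 fell, 3 did not pass and the median log2 fold change was -0.64. PSMA6 (14q13.2) had 226 and 248 RPKM in control and 69.4 and 77.5 RPKM with TPA. Both treated libraries were far under either control, at a mean 31.0% of their level (log2 fold change -1.68, SE 0.139, adjusted p = 2.84e-05). Between fits with 1 library left out this value lay from -1.76 to -1.60. PSMA7 (20q13.33), the alpha gene with the highest mean in control, had 235 and 267 RPKM there and 136 and 156 RPKM with TPA (log2 fold change -0.77, SE 0.146, adjusted p = 0.00245).

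PSMA3 (14q23.1) went from 136 and 176 RPKM to 81.97 and 93.5 RPKM (log2 fold change -0.82, adjusted p = 0.00352); its antisense row PSMA3-AS1, at 9.76 and 11.8 against 11.8 and 12.6 RPKM, did not pass. PSMA2 (7p14.1) went from 121 and 152 RPKM to 78.6 and 95.4 RPKM (log2 fold change -0.64, adjusted p = 0.0122). PSMA2 lost its call when control replicate 2 or TPA replicate 1 was left out, and also when low values were not filtered. The other 3 alpha genes did not pass. PSMA4 had 198 and 253 RPKM in control and 156 and 201 RPKM with TPA, so its groups overlapped (adjusted p = 0.145), as did those of PSMA5, the lowest of the 7 tested, at 31.9 and 38.0 against 29.7 and 35.3 RPKM. PSMA1 was at 126 and 142 against 110.0 and 121 RPKM (adjusted p = 0.237).

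The order of the alpha genes differed between the groups. In control, PSMA7, PSMA6 and PSMA4 had means of 251 ± 22.6, 237 ± 15.5 and 226 ± 38.8 RPKM (SD, n = 2 libraries, as for every mean ± SD here) and did not differ beyond their spread. With TPA, PSMA6 had 73.5 ± 5.78 RPKM and lay below every other alpha gene tested except PSMA5, though PSMA2, at 87.0 ± 11.9 RPKM, was within the spread. The ratio of PSMA6 to PSMA1 was 1.798 and 1.75 in control and 0.631 and 0.640 with TPA. RefSeq names 4 pseudogenes after PSMA6, and how reads that match several places were counted is not given in the sources used here. PSMA8, which replaces PSMA7 in the testis, was listed at 0 in all 4 libraries.

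Of the role groups with at least 4 genes tested, the constitutive beta ring had the median nearest to 0: of 7 genes, 1 fell and 6 did not pass, with a median log2 fold change of -0.23. PSMB3 (17q12), a structural subunit, went from 128 and 144 RPKM to 96.2 and 102 RPKM (log2 fold change -0.45, SE 0.137, adjusted p = 0.0215). It passed in only 1 of the 4 fits with a library left out. Of the 3 catalytic subunits, PSMB6, the caspase-like site, had 115 and 123 RPKM in control and 119 and 131 RPKM with TPA, and its groups overlapped (adjusted p = 0.658). PSMB7, the trypsin-like site, had 128 and 142 against 114 and 122 RPKM (adjusted p = 0.264). It overlaps LOC100129034, which rose from 26.2 and 24.0 to 55.4 and 46.4 RPKM, and the assignment of shared reads is not given. PSMB5, the chymotrypsin-like site and the main target of the drug bortezomib, had 94.4 and 113 against 78.2 and 92.5 RPKM (adjusted p = 0.161). For PSMB5 and PSMB7 both treated values lay below both controls, by less than the test could call.

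The other structural beta genes had no call either. PSMB4, the beta gene with the highest mean, had 186 and 196 RPKM in control and 184 and 215 RPKM with TPA, with TPA replicates on either side of the controls. PSMB1 had 152 and 177 against 129 and 151 RPKM (adjusted p = 0.226), and PSMB2, the lowest, 33.2 and 36.2 against 28.1 and 28.5 RPKM (adjusted p = 0.0976).

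Of the immune and thymus forms of the beta subunits, 1 of 4 could be tested, and it fell. PSMB10 (16q22.1), which takes the place of PSMB7 in the immunoproteasome, had 95.7 and 85.8 RPKM in control and 45.0 and 54.6 RPKM with TPA. The groups were well apart (log2 fold change -0.86, SE 0.151, adjusted p = 0.00170). The ratio of PSMB10 to PSMB7 was 0.748 and 0.606 in control and 0.396 and 0.446 with TPA, lower in both treated libraries. PSMB8 was listed at 0 in all 4 libraries, and PSMB9 had 0.102, 0.126, 0.042 and 0.247 RPKM. Both lie in band 6p21.32, where 8 of 50 protein-coding genes averaged at least 1 RPKM, against 27 of 45 in 6p21.31 on one side and 3 of 79 in 6p21.33 on the other, so these values cannot be read as the levels of the other immune subunits. PSMB11, the thymus-specific subunit, was listed at 0 in control and had 0.011 and 0.012 RPKM with TPA.

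Of 6 genes for the ATPases that unfold substrates in the base of the cap, 5 were tested; 2 fell and 3 did not pass, with a median of -0.36. PSMC3 (11p11.2) had 87.4 and 99.3 RPKM in control and 46.6 and 46.7 RPKM with TPA, and the fall was the largest of the cap (log2 fold change -0.98, SE 0.136, adjusted p = 4.68e-04). PSMC5 (17q23.3), the ATPase gene with the highest mean, went from 101 and 113 RPKM to 75.4 and 80.9 RPKM (adjusted p = 0.0238), a call lost in 3 of the 4 fits with a library left out. It overlaps FTSJ3 on the other strand, which fell as well, from 30.3 and 33.3 to 23.3 and 23.7 RPKM, and use of strand is not given in the sources used here. PSMC4 was nearly level, at 50.9 and 54.4 against 50.1 and 52.2 RPKM.

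PSMC2 had 29.7 and 36.6 RPKM in control and 24.0 and 27.1 RPKM with TPA (adjusted p = 0.0776), and passed after median-of-ratios scaling and with the replicate number as a block. PSMC2 overlaps PMPCB on the same strand, which did not pass, at 28.3 and 30.5 against 27.9 and 31.6 RPKM. The assignment of shared reads is not given. PSMC6 had 22.7 and 29.9 against 19.1 and 22.6 RPKM (adjusted p = 0.147). PSMC1 had 0.920 and 0.876 RPKM in control and 0.815 and 0.726 RPKM with TPA, just under the filter and far below the other 5 ATPase genes, with which its product forms a ring in equal numbers. RefSeq names 13 pseudogenes after PSMC1, the most for any proteasome gene, and their part in this low value was not tested.

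Of the 11 non-ATPase subunits of the cap, 7 fell (63.6%, against 29.8% of all genes tested). The other 4 did not pass, and the median was -0.40. PSMD14 (2q24.2), the metalloprotease that cuts ubiquitin chains off the substrate, had 84.7 and 105 RPKM in control and 53.4 and 55.9 RPKM with TPA (log2 fold change -0.77, adjusted p = 0.00280). PSMD1 (2q37.1), a scaffold of the base, had 52.9 and 57.7 against 36.2 and 33.6 RPKM (log2 fold change -0.65, adjusted p = 0.00384). PSMD2 (3q27.1), the other scaffold, which binds shuttle factors, had 93.2 and 102 against 64.8 and 63.6 RPKM (log2 fold change -0.60, adjusted p = 0.00543). In these 3 genes both treated values lay well below both controls. The lid genes PSMD11, PSMD7, PSMD3 and PSMD12 had log2 fold changes from -0.67 to -0.37, and the last 3 each lost their call in at least 3 fits with a library left out. PSMD11 and PSMD2 did not pass without control replicate 2.

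One cap gene was higher in both treated libraries. PSMD4 (1q21.3), which encodes a ubiquitin receptor of the cap, had 50.1 and 54.5 RPKM in control and 59.9 and 71.9 RPKM with TPA (log2 fold change 0.32, SE 0.147, adjusted p = 0.0935). It did not pass, but it rose after median-of-ratios scaling, after quantile normalization, with the replicate number as a block and without TPA replicate 1. PSMD13, a lid gene, had 69.3 and 83.4 against 72.9 and 84.4 RPKM, with no sign of a difference beyond the replicates. PSMD8, the non-ATPase gene with the highest mean, had 102 and 105 against 86.8 and 86.1 RPKM (adjusted p = 0.124), and PSMD6 had 60.8 and 77.2 against 52.2 and 54.2 RPKM (adjusted p = 0.0785).

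**Figure D2:**
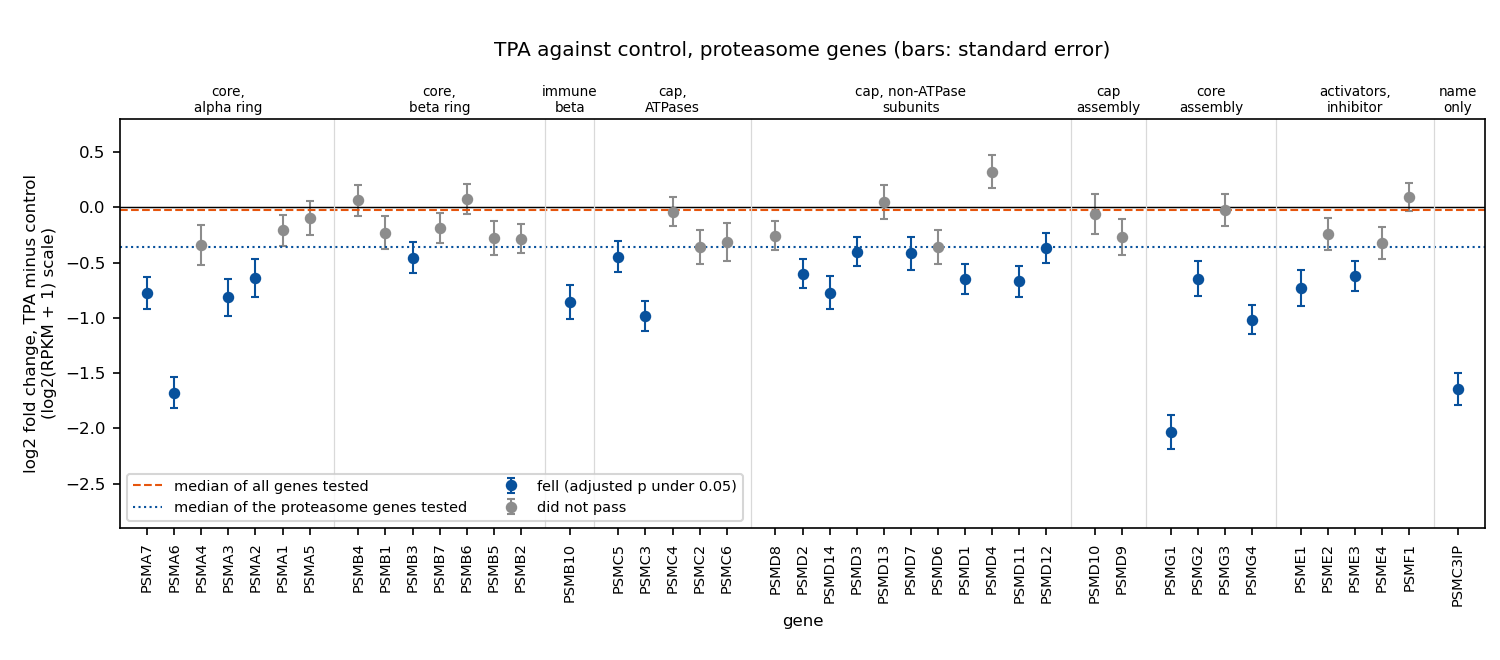
Log2 fold change (TPA minus control, log2(RPKM + 1) scale) of each proteasome gene tested, with its standard error, in blue where it fell at an adjusted p under 0.05 and in grey where it did not pass. The dashed line is the median of all genes tested (-0.02) and the dotted line that of the proteasome genes (-0.36); PSMG1, PSMA6 and PSMC3IP lie lowest and PSMD4 highest.

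Of the 4 of 43 genes that fell at least 2-fold on the log2(RPKM + 1) scale, 2 were assembly factors of the core. Another was PSMC3IP, which is no proteasome subunit. Over all genes tested, 11.5% fell by as much. PSMG1 and PSMG2 form a pair that guides the alpha ring, and PSMG3 and PSMG4 form another. Of the 4 genes, 3 fell and 1 did not pass, with a median of -0.83. PSMG1 (21q22.2) had 83.2 and 97.6 RPKM in control and 19.2 and 23.6 RPKM with TPA, a mean 23.7% of the control level and the largest fall of all proteasome genes (log2 fold change -2.03, SE 0.157, adjusted p = 1.94e-05). Its partner PSMG2 (18p11.21) had 61.6 and 76.7 against 40.2 and 47.4 RPKM (log2 fold change -0.64, SE 0.161, adjusted p = 0.00951), and lost its call when control replicate 2 or TPA replicate 1 was left out. PSMG2 overlaps CEP76, which fell from 10.4 and 11.8 to 4.14 and 4.404 RPKM.

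The ratio of PSMG1 to PSMG2 was 1.35 and 1.27 in control and 0.478 and 0.498 with TPA, so the order of the pair was the opposite in the treated libraries. In the other pair, PSMG4 (6p25.2) had 20.6 and 20.0 RPKM in control and 9.17 and 9.88 RPKM with TPA (log2 fold change -1.02, SE 0.129, adjusted p = 2.95e-04). Its partner PSMG3 (7p22.3) had 33.6 and 34.7 against 30.4 and 36.9 RPKM, with overlapping groups (adjusted p = 0.888). The row of its antisense RNA, PSMG3-AS1, rose from 1.05 and 0.814 to 6.12 and 7.40 RPKM (log2 fold change 2.003, adjusted p = 1.39e-05). Thus PSMG1 and PSMG2 both fell, whereas of PSMG3 and PSMG4 only PSMG4 did. The difference within a pair was not tested.

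Chaperones that help to assemble the base of the cap gave no call. PSMD9 had 21.98 and 25.3 RPKM in control and 17.2 and 21.8 RPKM with TPA (adjusted p = 0.181). PSMD10, also called gankyrin, had 22.2 and 27.6 against 20.3 and 27.6 RPKM, a like range in both groups. It overlaps ATG4A on the other strand, which rose from 2.96 and 3.69 to 4.98 and 5.75 RPKM. PSMD5 (9q33.2) had 0.019 and 0.013 RPKM in control and 0.117 and 0.140 RPKM with TPA, too low to be tested with the filter. With no filter it rose, and the antisense row PSMD5-AS1 was as low, at 0.011 and 0.012 against 0.160 and 0.068 RPKM.

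Among the activators that can replace the cap, and the inhibitor, 2 of 5 genes fell and 3 did not pass. PSME1 (14q12) and PSME2 (14q12) encode the subunits of an activator that interferon-gamma induces. PSME1, the proteasome gene with the highest mean in control, had 319 and 338 RPKM in control and 174 and 225 RPKM with TPA (log2 fold change -0.73, SE 0.161, adjusted p = 0.00526). PSME2 had 92.01 and 107 against 78.5 and 88.6 RPKM (adjusted p = 0.184), and the ratio of PSME1 to PSME2 was 3.46 and 3.17 in control and 2.21 and 2.54 with TPA. PSME3 (17q21.31), a nuclear activator that acts without ubiquitin, had 74.4 and 81.5 against 50.9 and 49.7 RPKM (log2 fold change -0.62, SE 0.132, adjusted p = 0.00453), and did not pass without control replicate 2.

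PSME4, a large activator tied to chromatin, had 21.7 and 21.29 RPKM in control and 18.6 and 15.4 RPKM with TPA (adjusted p = 0.0838), and passed without TPA replicate 1 and with the replicate number as a block. PSMF1, the inhibitor of the core, had the lowest control mean of the proteasome genes tested, at 9.73 and 9.17 against 9.79 and 10.5 RPKM (adjusted p = 0.558). PSMC3IP (17q21.2) matched by name only: it encodes a partner protein of PSMC3 that acts in homologous recombination and is no proteasome subunit. It went from 22.8 and 24.4 to 6.25 and 7.56 RPKM (log2 fold change -1.64, adjusted p = 3.54e-05), and without it 20 of 42 genes tested fell. It overlaps MLX, which fell too, from 30.3 and 31.8 to 20.3 and 21.9 RPKM.

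Levels also differed between the replicates in one direction. Replicate 2 was above replicate 1 for 39 of the 43 genes in control and for 37 of 43 with TPA, against 60.8% and 73.1% of all genes tested. The median difference was 0.17 in both groups on the log2 scale, against 0.05 and 0.13 over all genes and 0.08 and 0.16 over those in the same range of mean RPKM. With TPA the proteasome genes thus had nearly the median of genes at like levels. In both groups at once, 34 of the 43 were higher in replicate 2 (79.1%, against 50.3% of all genes). Set against the control of the same number, the gene was lower with TPA for 39 of 43 in replicate 1 (median -0.33) and for 37 of 43 in replicate 2 (median -0.44). The other 4 and 6 of the 43 were higher, where 46.5% and 50.8% of all genes tested were. Among genes in the same range of mean RPKM, 40.4% and 45.7% were higher. The medians were -0.06 and 0.01 over all genes, and -0.16 and -0.07 over those in that range. The fall of the proteasome genes was thus present within each number, with medians further below 0 than these. With the replicate number as a block, 32 genes fell and 1 rose, where 67.7% of all genes changed instead of 58.2%, but the labels do not say that a number marks a shared culture or day.

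**Figure D3:**
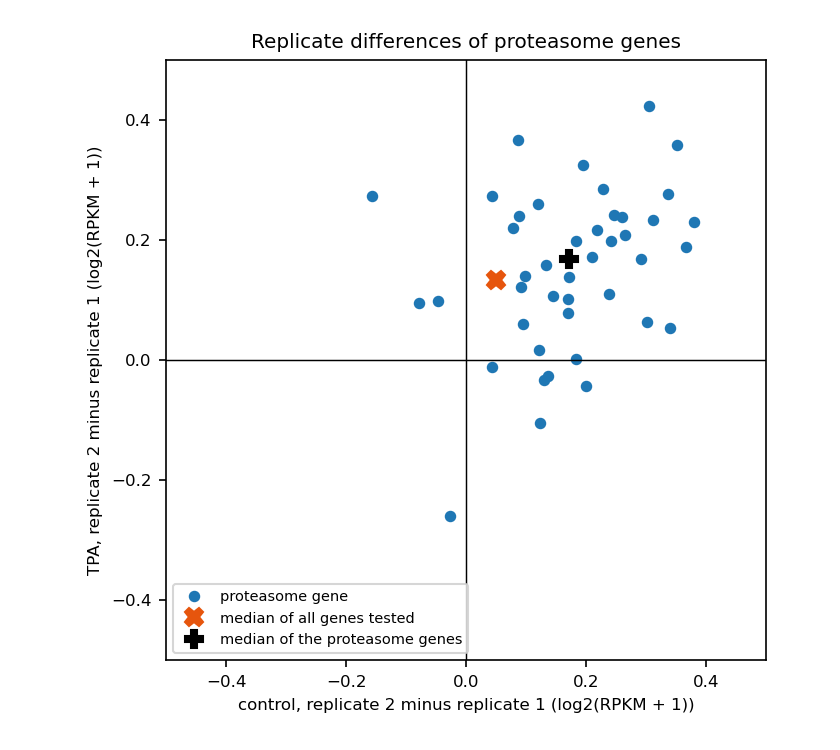
Difference between replicate 2 and replicate 1 on the log2(RPKM + 1) scale in control (horizontal) and with TPA (vertical), 1 blue point per proteasome gene tested, with the black plus at their median and the orange cross at that of all genes tested. Most points (34 of 43) lie above 0 on both axes, and the median of the proteasome genes lies to the right of that of all genes tested (0.17 against 0.05 in control).

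Other genes of the pathway moved both ways. Of 12 genes of proteasome cofactors and maturation, 2 rose, 2 fell and 8 did not pass, with a median of -0.21. As background for this list and those below, 29.8% of all genes tested fell and 28.4% rose. The deubiquitinases that sit on the cap both fell, UCHL5 from 69.5 and 77.4 to 35.5 and 41.2 RPKM (adjusted p = 8.85e-04) and USP14 from 36.9 and 36.2 to 21.8 and 19.5 RPKM (adjusted p = 0.00129). AKIRIN2, which brings proteasomes into the nucleus, rose from 6.91 and 6.76 to 12.4 and 13.1 RPKM (adjusted p = 9.42e-04), and ZFAND5, a proteasome-binding protein, from 23.1 and 24.5 to 32.5 and 35.04 RPKM (adjusted p = 0.0135). POMP, which matures the core, had 98.9 and 111 against 113 and 120.0 RPKM and did not pass (adjusted p = 0.368).

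Of 8 genes of the NRF1 axis, 2 rose, 3 fell and 3 did not pass. NFE2L1 itself had 28.8 and 28.9 RPKM in control and 27.1 and 32.5 RPKM with TPA (adjusted p = 0.823). DDI2, the protease that activates NRF1, rose from 10.3 and 9.93 to 16.9 and 12.1 RPKM (adjusted p = 0.0474), and MAFF, a small partner factor, rose from 2.05 and 1.41 to 6.11 and 6.29 RPKM (adjusted p = 1.22e-04). The small partner factors MAFK and MAFG fell, with log2 fold changes of -0.82 and -0.43, and so did NGLY1, which removes sugars from NRF1 (log2 fold change -0.55, adjusted p = 0.0415).

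The list of ubiquitin genes, activating enzymes and shuttles had a median of -0.13. Its shuttle genes RAD23B and UBQLN2, whose products carry ubiquitin-tagged proteins to the proteasome, fell, with log2 fold changes of -0.47 and -0.42. Of 6 genes that induce the immunoproteasome or its signal, 3 rose, 0 fell (0 also at an unadjusted p under 0.05) and 3 did not pass. IFNGR1, a chain of the interferon-gamma receptor, rose from 8.51 and 11.2 to 53.3 and 61.8 RPKM (adjusted p = 9.67e-06) and IRF8 from 4.06 and 5.30 to 16.7 and 16.8 RPKM (adjusted p = 4.44e-05). IRF1 had 22.6 and 21.4 against 18.2 and 25.9 RPKM and NLRC5 15.1 and 13.3 against 16.01 and 13.3 RPKM, with no call for either.

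Complexes built on a similar plan are given for comparison. All 8 genes of the CCT chaperonin, a ring that folds actin and tubulin, fell, with a median of -0.74 and log2 fold changes from -1.44 for TCP1 to -0.65 for CCT8. The COP9 signalosome, whose subunits resemble those of the proteasome lid, had 1 gene that rose, 2 that fell and 7 that did not pass, with a median of -0.00376. The translation factor eIF3, built from the same kinds of subunit, had 4 of 13 that fell, 0 that rose (0 also at an unadjusted p under 0.05) and a median of -0.14. Its share of falls was 30.8%, near the 29.8% of all genes tested, of which 28.4% rose. For the COP9 signalosome the shares were 20.0% that fell and 10.0% that rose. The proteasome genes, with 21 of 43 and a median of -0.36, lay between the chaperonin and these lid-like complexes; the difference between complexes was not tested.

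**Figure D4:**
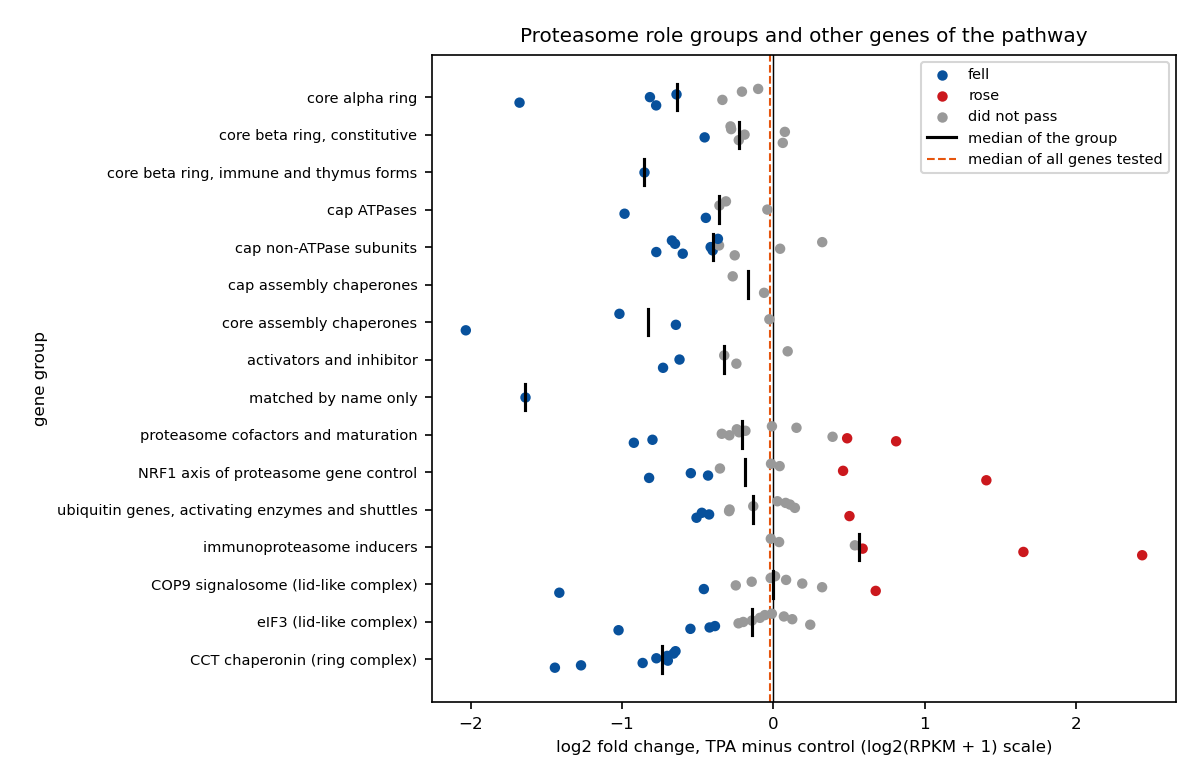
Log2 fold change (TPA minus control, log2(RPKM + 1) scale) of each gene tested, by role group of the proteasome and by list of other pathway genes, in blue where it fell, red where it rose and grey where it did not pass; black bars are group medians and the dashed line is the median of all genes tested. The alpha ring and the core assembly chaperones have lower medians (-0.64 and -0.83) than the constitutive beta ring (-0.23).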

How the data were processed

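RNA of 2 control and 2 TPA libraries was analysed, grouped by the sample titles. The authors deposited 1 RPKM value per gene and library, per the file headers, to 3 decimals. CASAVA 1.8, Bowtie 1.12, TopHat, SAMtools and HOMER on hg19 are named in the submitters' processing notes, with no role or order; use of strand and multiply mapped reads are not given in the sources used here. The 12159 genes that reached 1 RPKM in 2 or more libraries were fitted as log2(RPKM + 1) in R 4.3.3 with limma 3.58.1 (eBayes with trend, TPA minus control, two-sided, Benjamini-Hochberg over all genes; 2 residual and 5.88 prior degrees of freedom). The fit was tested on simulated data. Count models were not applied to RPKM; the log scale understates changes of low genes. An exact permutation test of 2 against 2 cannot go below 0.333 and was not used. Genes, lists and motifs were chosen with earlier results of these data known. Values in every library are given for PSMB5 to PSMB10, the chaperones, activators and inhibitor, and per role group the highest gene, the 2 smallest p in each direction and genes against the majority; the per-library values of other genes were added after they were seen. Promoters are RefSeq, GRCh38.p14, by symbol; gene overlaps and pseudogene names come from RefSeq, GRCh38.p14, without coordinates. Some results of the ubiquitin list are not reported here. Figures: matplotlib 3.10.9.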

Additional observations from a re-analysis of the deposited data

How the results depend on the processing

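The number of proteasome genes that fell, 21, stayed at 21 with pseudocounts of 0.1 and 0.5, with a filter at 5 RPKM, without limma's trend and after quantile normalization. It was 22 after median-of-ratios scaling, 18 with no filter on low values and 15 at an adjusted p under 0.01. Of all genes tested, 62.1% changed after median-of-ratios scaling and 35.96% with no filter, against 58.2% in the main fit. The fit with no filter tested a larger set of genes and called 7234 of them, against 7075 in the main fit. Its share is therefore not on the same footing as the main one. The share of all genes at an adjusted p under 0.01 is not given here. With the replicate number as a block, 32 proteasome genes fell, of which 21 were shared with the fit without the block. The correlation of same-numbered deviations was 0.361 across all genes tested, which is a hint from the data and not a design. Leaving out 1 library gave 11 to 20 that fell and 0 to 1 that rose. The number that rose was 1 with no filter (PSMD5), and 1 after median-of-ratios scaling, after quantile normalization and with the block (PSMD4 in each). Fits with 1 library left out keep a group of 1, whose spread is taken from the other group. With a control left out the prior degrees of freedom became infinite, so the counts of 11 and 16 rest on another estimate of the spread than 21. No gene with a call changed direction in any alternative run. The cause of the changed counts was not tested. Read totals are unknown, so no counting interval is given.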
